A study of Mus musculus with 6 samples.

Results

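The genes described here build and trim the sugar chains of proteins and lipids, and make or degrade sialic acid, the charged sugar that caps many of those chains. They were chosen by a rule on gene names, with earlier results of these data known. It took the sialyltransferases (St3gal, St6gal and St8sia), the fucosyltransferases (Fut) and the N-glycan mannosidases (Man1 and Man2a). It also took the N-acetylglucosaminyl-, galactosyl- and N-acetylgalactosaminyltransferases (B3gnt, B3gal, B4gal, Galnt, Gcnt and Mgat). The carbohydrate and heparan sulfotransferases (Chst, Hs3st and Hs6st) and 7 genes of sialic acid metabolism completed it. The rule found 130 genes among 55363 features, of which 128 are protein-coding and 2, St8sia3os and Galnt6os, are antisense RNAs. RNA came from the whole oviduct of female mice mated at 6 to 8 weeks of age and killed on gestational day 3. Libraries labelled Mettl3 f/f (n = 3) were compared with libraries labelled Mettl3 d/d (n = 3), where f/f usually stands for the intact allele with loxP sites around the part to be removed and d/d for the allele after removal. Mettl3 encodes the enzyme that methylates adenosines in messenger RNA. The sources used here name neither the Cre driver nor the deleted exons, and the labels do not say whether each library came from 1 animal.

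N-glycans are attached to proteins in the endoplasmic reticulum as a preformed chain, trimmed by mannosidases, and rebuilt in the Golgi with branches of N-acetylglucosamine, galactose, fucose and sialic acid. O-glycans are begun in the Golgi on serine or threonine by the Galnt enzymes and extended on several core structures. The oviduct epithelium secretes heavily glycosylated proteins, among them oviductin, and sugar chains on gametes, embryos and epithelium have long been studied in fertilization and early embryo transport.

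Values are FPKM, fragment counts corrected for transcript length and library depth, and the test was limma on log2(FPKM + 1) over the 15438 features that averaged 1 FPKM or more, with Benjamini-Hochberg adjustment over all of them and a threshold of 0.05. Log2 changes are d/d minus f/f on that scale, folds are ratios of group mean FPKM, and a gene is said to have risen or fallen only where it passed that threshold. The steps of the lowest FPKM values implied between 16600000 and 17800000 fragments per library, so that 1 fragment on a long transcript was worth 0.0323 to 0.0345 FPKM at 2000 nt.

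Mettl3 itself, at 11.8 to 13.2 FPKM in f/f, reached 19.8 to 24.5 FPKM in the libraries labelled d/d, or 1.74 times as much (log2 change 0.75, SE 0.12, limma adjusted p = 0.0145). Gene-level values cannot show whether an exon is missing. The genotype labels were thus not verified, and all directions below depend on them. Oviduct markers matched the labelled tissue. The secretory gene Ovgp1 was at 2651 to 5690 FPKM and the multiciliated cell gene Tppp3 at 31.8 to 176.9 FPKM in every library. From replicate 1 to 3, the summed FPKM of the 7 markers of the uterine end was 5.29, 31.5 and 28.4 in the f/f libraries and 9.63, 14.5 and 20.9 in the d/d libraries, with Hoxa10 the highest of them at up to 26.6 and with Hoxa13 and Prss28 listed at 0. The summed FPKM of the 7 ovary markers was 8.33, 6.36 and 26.5 in the f/f libraries and 6.22 to 7.74 in the d/d libraries, with Fshr listed at 0 and Cyp11a1 at 13.5 FPKM in f/f replicate 3 alone above 1. The 2 replicates numbered 1 stood apart from their groups. Summed smooth muscle markers ran from 2008 to 4757 FPKM in f/f, with the lowest in replicate 1, and from 2506 to 4052 in d/d. The 15 multiciliated markers summed to 308.7 to 788.9 FPKM in f/f, with the highest in replicate 1, and to 101.6 to 457.2 in d/d, with the lowest in replicate 1. Macrophage and myeloid markers were higher in d/d, with sums of 515.1 to 631.5 FPKM in f/f against 1402 to 1843 in d/d. Of the 14, 13 passed the threshold as higher, beside 6.04% of all features tested. The 8 lymphocyte markers, of which 4 were tested, summed to 13.2 to 21.8 FPKM in f/f and 24.8 to 40.5 in d/d. Ptprc, among the most abundant of them, was not called (log2 change 0.77, limma adjusted p = 0.117). The sums of stromal markers (2277 to 2484 FPKM in f/f, 2021 to 2903 in d/d), endothelial markers (141.7 to 188.8 FPKM, 145.8 to 222.6) and secretory markers overlapped. Within these lists and those above, Ltf, Muc1, Msx2 (secretory), Lum (stromal) and Cd79b (lymphocyte) rose, while Pdgfra (stromal), Des (smooth muscle) and Rfx2 (multiciliated) fell. In whole-tissue RNA, a change in the number of cells of a type and a change in RNA per cell cannot be told apart, and the part of these markers in the results below was not tested.

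Of the 130 genes, 94 passed the filter on low values and 36 did not, 6 of which were listed at 0 in all libraries. In the d/d libraries 14 of the 94 rose, which is 14.9%, beside 6.04% of all features tested, and 5 fell, which is 5.32%, beside 4.97%. In either direction 19 changed (20.2%, beside 11.0%). The groups did not overlap, with d/d above f/f, for 34 genes (36.2%, beside 18.1% of all features) and, with d/d below f/f, for 9 (9.57%, beside 17.4%). The median log2 change was 0.018 over the 94 genes and -0.011 over all features, both close to 0. Of the 14 that rose, B4galnt3 and Chst8 averaged under 1 FPKM in f/f and reached the test only through their d/d values. The counts per class and list below are to be read beside the same 6.04% and 4.97% of all features. In a class of few genes, 1 call moves the share widely.

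**Figure D1:**
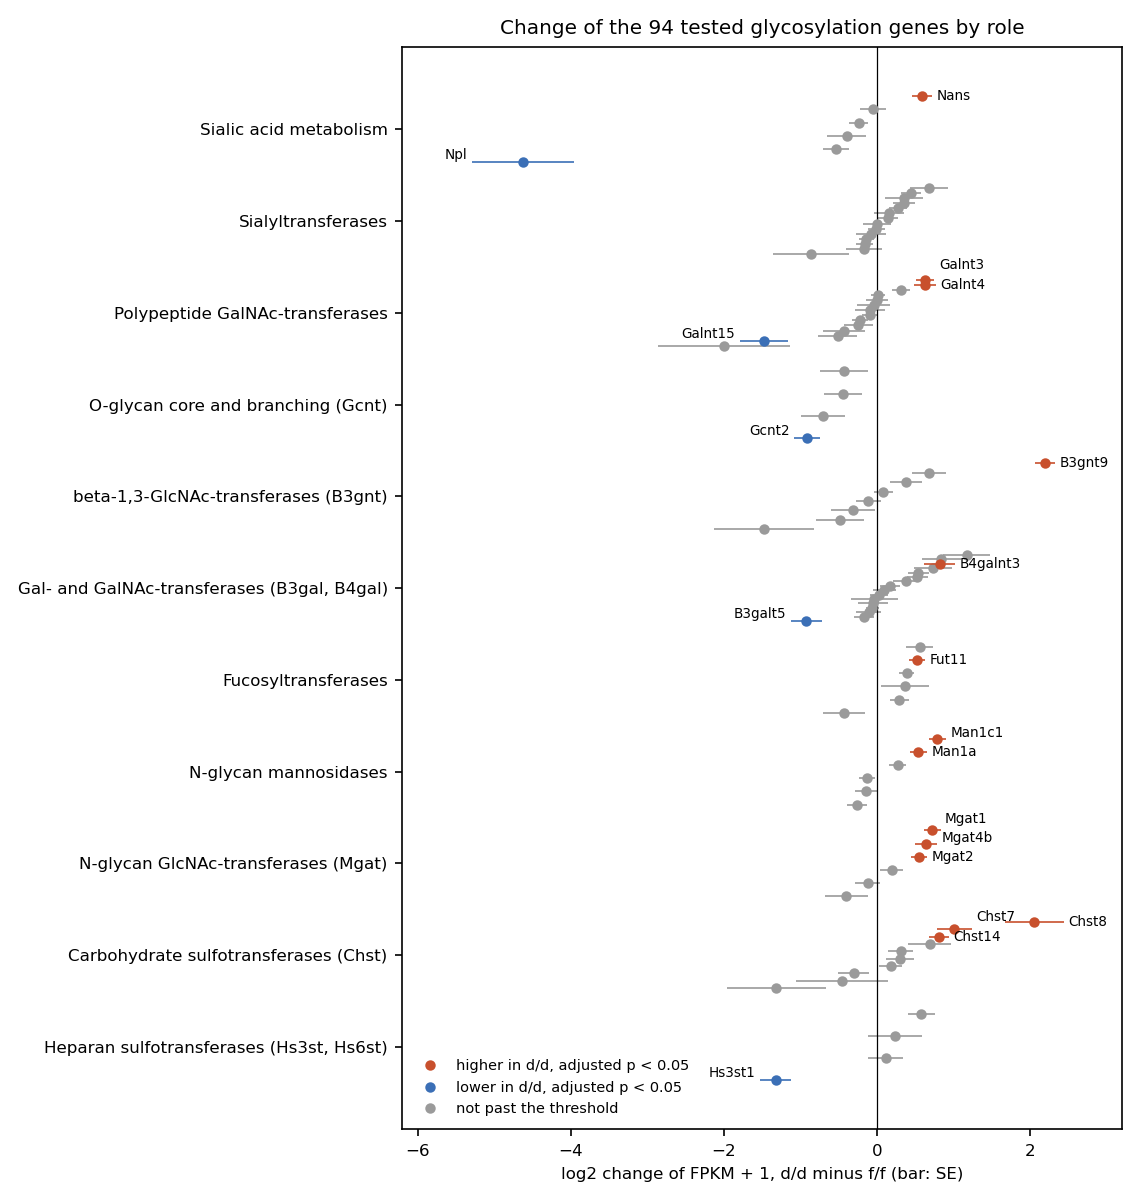
Log2 change of FPKM + 1 (d/d minus f/f, horizontal axis) for the 94 tested genes, grouped by role, with bars of 1 standard error; red points rose and blue points fell past the limma threshold, and grey points did not pass it. Npl lies far to the left at -4.62 and B3gnt9 and Chst8 farthest to the right, while the coloured points among the mannosidases, Mgat and Chst genes are all red.

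Sialic acid metabolism held the largest fall. Npl, the lyase that splits free sialic acid into N-acetylmannosamine and pyruvate, was at 27.5, 178 and 160 FPKM in the f/f libraries against 2.44, 2.93 and 3.09 in the d/d libraries, each listed from replicate 1 to 3 here and below. The lowest f/f library was still well above the highest d/d library, and the f/f libraries themselves differed widely. The means of 122 ± 82.3 and 2.82 ± 0.340 (SD, n = 3 per group) gave a 43.2-fold lower level in d/d (log2 change -4.62, SE 0.67, limma adjusted p = 0.0119). Npl ranked 1 of the 130 genes by mean level in f/f and 82 in d/d, and the ratio stayed between 33.3 and 60.0 with any single library left out. That top rank did not hold in f/f replicate 1, where Galnt15 was at 71.4 FPKM and Galnt1 at 66.7. Npl missed the threshold without f/f replicate 2 (limma adjusted p = 0.0566) and without d/d replicate 3, and without both replicates numbered 1 the log2 change was -5.41 (limma adjusted p = 0.00237). The f/f library lowest for Npl, replicate 1, was also the lowest f/f library in the summed markers of the uterine end and of smooth muscle given above. In d/d, Npl and the uterine-end sum were again lowest in replicate 1, where the smooth muscle sum was highest. Their part in the spread of Npl was not tested.

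The gene lies at chr1:153503015-153550045 on the minus strand of GRCm38. Its promoter window, shown because no other gene here fell as far, is 300 bases from RefSeq (GRCm38.p6, chr1:153549665-153549964, minus strand, 61.0% G and C) and is printed 5′ to 3′. Windows run from 250 bases before to 50 after the start used there. For Npl the window lies inside the gene bounds just given, so that start differs from the GENCODE one. No letters are in capitals, since capitals mark GC boxes (GGGCGG on either strand) here and below and this window holds none.
Npl promoter: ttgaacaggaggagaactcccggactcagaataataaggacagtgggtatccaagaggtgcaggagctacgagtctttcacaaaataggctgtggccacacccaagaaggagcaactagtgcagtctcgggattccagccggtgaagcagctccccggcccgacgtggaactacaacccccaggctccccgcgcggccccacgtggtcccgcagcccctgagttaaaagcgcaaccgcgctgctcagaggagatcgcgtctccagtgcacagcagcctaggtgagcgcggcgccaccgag

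The other sialic acid genes moved less. Nans, the synthase that condenses phosphorylated N-acetylmannosamine into sialic acid phosphate, was at 23.9, 27.0 and 23.4 FPKM in f/f against 36.8, 32.7 and 44.4 in d/d. All d/d values were above all f/f values, and Nans rose 1.53-fold (log2 change 0.59, SE 0.14, limma adjusted p = 0.0409), a call lost with any single library left out. Its exons share 1356 of 4581 nt with Trim14 on the opposite strand, and Trim14 averaged 10.2 ± 0.889 FPKM in f/f against 9.79 ± 0.980 in d/d (SD, n = 3 per group). Gne, which carries out the first committed steps of sialic acid synthesis, was at 29.0, 22.1 and 24.4 FPKM in f/f against 29.7, 21.4 and 21.9 in d/d. These ranges overlapped, with a log2 change of -0.05 (95% interval -0.45 to 0.34, limma adjusted p = 0.861). Cmas, which activates sialic acid for transfer, was at 21.4, 26.0 and 27.7 FPKM in f/f against 20.6, 21.2 and 20.9 in d/d, lower in each d/d library but short of the threshold (limma adjusted p = 0.232). Neu3, a sialidase of the plasma membrane that acts on gangliosides, was at 4.62, 3.44 and 4.18 FPKM in f/f against 2.70, 2.22 and 2.59 in d/d (log2 change -0.53, limma adjusted p = 0.0891). Neu2, a cytosolic sialidase, was at 2.88, 1.49 and 1.66 FPKM in f/f against 1.31, 0.925 and 1.54 in d/d (limma adjusted p = 0.340). Nanp, the phosphatase between Nans and Cmas, was at 0, 0.149 and 0.0517 FPKM in f/f against 0.205, 0.106 and 0 in d/d and was not tested.

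**Figure D2:**
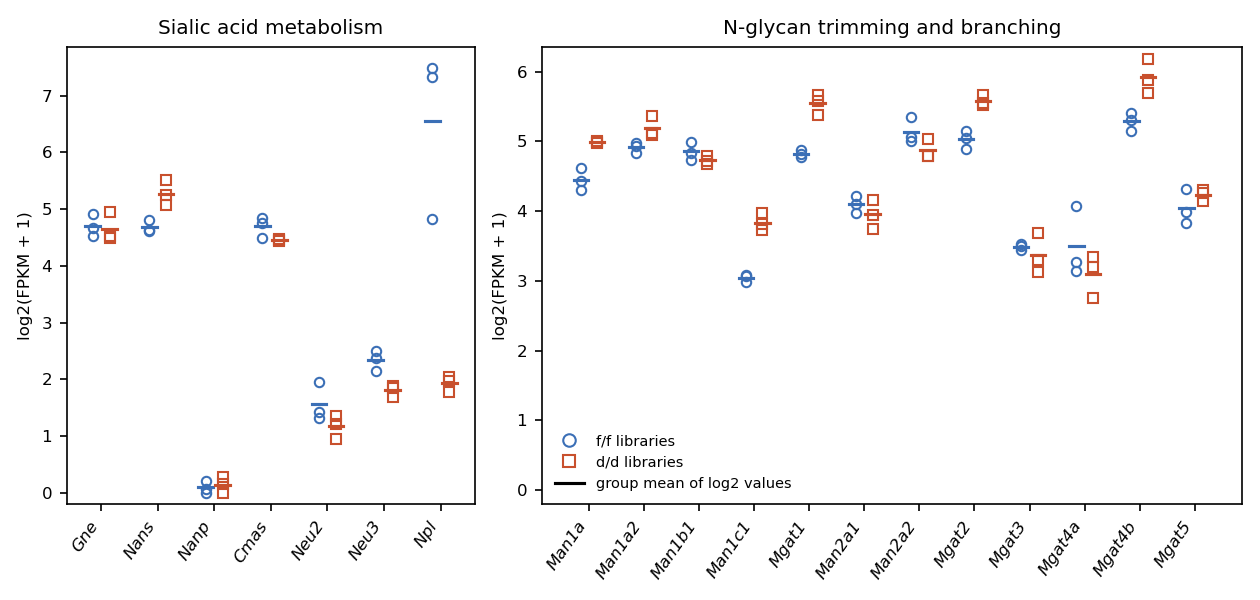
Log2(FPKM + 1) of each library for the sialic acid genes (left) and for the tested N-glycan mannosidases and Mgat genes (right), with circles for f/f, squares for d/d and lines for group means. Npl drops from 27.5 to 178 FPKM in f/f to 2.44 to 3.09 in d/d, while Man1a, Man1c1, Mgat1, Mgat2 and Mgat4b are higher in every d/d library than in any f/f library.

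Outside the named genes, a list of 9 other genes of sialic acid supply and turnover had 8 tested, of which 1 rose, 0 fell and the median log2 change was 0.27. The 1 was Ctsa, the lysosomal protective protein that the sialidase Neu1 depends on, at 74.4, 72.9 and 72.2 FPKM in f/f against 136.5, 98.5 and 111.8 in d/d (1.58-fold, limma adjusted p = 0.0306). Of 8 sialic acid binding lectins, 4 were tested and 1 rose, the myeloid inhibitory receptor Siglece, from 3.09 ± 0.882 to 6.996 ± 1.57 FPKM (SD, n = 3 per group, limma adjusted p = 0.0428). Both moved beside the macrophage markers, and their part in these values was not tested.

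The sialyltransferases, which place sialic acid on galactose, N-acetylgalactosamine or another sialic acid, gave no call. Of 21 genes 14 were tested, and by limma 0 rose and 0 fell, with 3 at an unadjusted p under 0.05 and log2 changes from -0.86 to 0.67. Summed over the class, the libraries held 200.9, 199.1 and 191.1 FPKM in f/f against 205.1, 221.5 and 199.1 in d/d, ranges that overlapped. St3gal4, the most abundant, which caps galactose on N- and O-glycans, averaged 48.0 ± 2.23 FPKM in f/f against 43.5 ± 3.40 in d/d (SD, n = 3 per group; log2 change -0.14, 95% interval -0.38 to 0.09, limma adjusted p = 0.383). St6galnac6, which sialylates gangliosides, averaged 24.5 ± 1.92 and 21.8 ± 2.03 FPKM (SD, n = 3 per group; 95% interval of the log2 change -0.43 to 0.11, limma adjusted p = 0.383). Other members of the class also stayed short of the threshold. St6gal1, which caps N-glycans, was at 16.7, 9.44 and 10.2 FPKM in f/f against 16.7, 25.2 and 17.1 in d/d (limma adjusted p = 0.131), and it passed only without f/f replicate 1. St3gal5, which makes the ganglioside GM3, was at 12.2, 11.6 and 10.4 FPKM in f/f against 14.4, 18.7 and 14.8 in d/d (limma adjusted p = 0.0839).

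Among the genes that trim and branch N-glycans the 5 calls were rises, of which 2 passed in more than 1 fit with a single library left out. Of 6 mannosidases and 11 Mgat genes, 12 were tested, of which 5 rose (41.7%, beside 6.04% of all features) and 0 fell (beside 4.97%), and the median log2 change was 0.23. With single libraries left out, Mgat4b passed in 0 of 6 fits, Man1a and Mgat2 in 1, Mgat1 in 4 and Man1c1 in 5. Mgat1 adds the first branch, the step that opens the way from high-mannose to hybrid and complex chains. It was at 26.4, 27.2 and 28.5 FPKM in f/f against 49.9, 47.0 and 40.6 in d/d, every d/d library above every f/f library (1.68-fold, log2 change 0.72, SE 0.11, limma adjusted p = 0.0131). Mgat2, which adds the second branch, was at 28.8, 34.4 and 32.3 FPKM in f/f against 44.9, 45.8 and 49.7 in d/d. Mgat2 rose 1.47-fold (log2 change 0.54, SE 0.10, limma adjusted p = 0.0243). Mgat4b, one of a pair of enzymes that add a further branch, was at 38.5, 34.4 and 41.6 FPKM in f/f against 58.2, 51.1 and 71.7 in d/d. It rose 1.58-fold (log2 change 0.64, SE 0.15, limma adjusted p = 0.0409). Its relative Mgat4a went without a call, at 8.68, 7.87 and 15.8 FPKM in f/f against 9.11, 8.16 and 5.75 in d/d (limma adjusted p = 0.380). The whole Mgat class summed to 131.3, 127.6 and 143.7 FPKM in f/f against 192.4, 180.1 and 193.1 in d/d, without overlap.

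Upstream of Mgat1, both Man1a and Man1c1 rose, Golgi mannosidases that trim the chain to the form Mgat1 accepts. Man1a was at 23.5, 18.8 and 20.5 FPKM in f/f against 30.9, 30.4 and 31.1 in d/d (1.47-fold, log2 change 0.54, SE 0.11, limma adjusted p = 0.0287). Man1c1 was at 7.48, 6.93 and 7.42 FPKM in f/f against 13.0, 12.3 and 14.7 in d/d (1.83-fold, log2 change 0.79, SE 0.12, limma adjusted p = 0.0124). In both genes the d/d libraries lay above the f/f libraries without overlap and close to each other. The third Golgi member, Man1a2, was the more abundant at 29.3 ± 1.51 and 35.7 ± 4.01 FPKM (SD, n = 3 per group) and missed the threshold (log2 change 0.27, limma adjusted p = 0.164). The later mannosidases Man2a1 and Man2a2, which act between Mgat1 and Mgat2, were not called, with log2 changes of -0.15 and -0.26 (limma adjusted p = 0.527 and 0.242). Mgat3, which adds a bisecting residue, and Mgat5, which adds a branch that can carry long chains, were not called either, with log2 changes of -0.12 and 0.19 (limma adjusted p = 0.653 and 0.428).

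Promoter windows of 300 bases were read from RefSeq (GRCm38.p6) for 15 of the 19 genes past the threshold, 21 windows in all, since a gene can have several starts. B3gnt9, Galnt4, Mgat4b and Nans had no window in that table. Man1c1 (chr4:134704241-134704540, minus strand, 72.3% G and C) and Mgat2 (chr12:69183908-69184207, plus strand, 69.0%) are shown as enzymes of 1 pathway that rose together, with GC boxes in capitals, 4 in Man1c1 and 3 in Mgat2.
Man1c1 promoter: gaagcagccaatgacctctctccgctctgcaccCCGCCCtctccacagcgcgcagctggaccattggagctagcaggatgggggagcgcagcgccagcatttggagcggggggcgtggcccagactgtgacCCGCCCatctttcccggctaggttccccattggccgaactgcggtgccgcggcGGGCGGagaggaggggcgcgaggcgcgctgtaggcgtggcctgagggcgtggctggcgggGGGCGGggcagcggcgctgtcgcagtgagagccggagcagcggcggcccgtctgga
Mgat2 promoter: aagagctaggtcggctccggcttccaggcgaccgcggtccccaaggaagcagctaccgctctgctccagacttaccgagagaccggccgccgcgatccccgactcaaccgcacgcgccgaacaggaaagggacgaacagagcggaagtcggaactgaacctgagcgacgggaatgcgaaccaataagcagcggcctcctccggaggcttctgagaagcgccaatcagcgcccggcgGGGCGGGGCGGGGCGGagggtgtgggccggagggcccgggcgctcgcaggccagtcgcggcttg

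A GC box, GGGCGG on either strand, was found in 12 of the 21 windows (57.1%), in 74 of the 130 windows of all matched members (56.9%), and in 35.7% of all 32851 windows of the table. Pooled over both directions, the share among the genes past the threshold was thus close to that among all matched members. The directions differed. Every gene that rose and had a window held a GC box in at least 1 window. Of the genes that fell, B3galt5, Galnt15, Hs3st1 and Npl held none, and Gcnt2 held 1 box in 1 of its windows. This split was seen afterwards and was not tested. The 21 windows had a median of 62.3% G and C, from 44.7% to 76.7%, beside 52.7% over all windows. A palindrome of the steroid receptor type, AGAACA and TGTTCT with 3 bases between them, was in 0 of the 130 windows and in 3 of all windows. The estrogen receptor type, GGTCA and TGACC with 3 bases between them, was in 0 of the 130 and in 23 of all windows. These counts describe the letters in these windows and nothing about the factors.

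Among 33 listed genes of N-glycan assembly and early trimming, 32 were tested, with 1 higher, 0 lower and a median log2 change of 0.047. The 1 was Mogs, the glucosidase that makes the first cut in the attached chain, at 10.7, 12.2 and 13.8 FPKM in f/f against 17.1, 19.1 and 17.6 in d/d (1.46-fold, limma adjusted p = 0.0442). Of the 31 listed genes of nucleotide sugar supply 29 had values and were tested, with a median log2 change of -0.051. Of these 0 were higher and 4 lower, beside 6.04% and 4.97% of all features. Mpi, which interconverts fructose and mannose phosphates, was at 28.1, 51.3 and 48.6 FPKM in f/f against 22.3, 20.6 and 21.8 in d/d (1.98-fold lower, limma adjusted p = 0.0487). Gfpt2, which makes glucosamine phosphate, fell from 6.51 ± 0.658 to 3.96 ± 0.308 FPKM (limma adjusted p = 0.0418), and the sugar transporter Slc35d2 from 6.68 ± 1.15 to 3.72 ± 0.558 (SD, n = 3 per group, limma adjusted p = 0.0481). Slc35d1, a transporter of the same family, also fell (1.66-fold lower, limma adjusted p = 0.0469). With single libraries left out, Mpi passed in 1 of 6 fits, and Gfpt2, Slc35d2 and Mogs in 0.

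The Galnt enzymes, which begin O-glycans, had calls in both directions. Of 21 genes 14 were tested, with a median log2 change of -0.0929. Of these 2 rose (14.3%, beside 6.04% of all features) and 1 fell (7.14%, beside 4.97%). Galnt1, second to Npl among the 130 genes by mean level in f/f and first in d/d, was at 67.4 ± 3.86 FPKM in f/f against 67.9 ± 1.63 in d/d (SD, n = 3 per group; 95% interval of the log2 change -0.20 to 0.23, limma adjusted p = 0.939). Galnt15 was at 71.4, 33.1 and 42.8 FPKM in f/f against 22.3, 15.2 and 12.3 in d/d, with no overlap. It fell 2.96-fold (log2 change -1.48, SE 0.32, limma adjusted p = 0.0332). Galnt3, known for protecting the hormone FGF23 from cleavage, was at 15.0, 12.4 and 15.1 FPKM in f/f against 22.4, 20.7 and 24.2 in d/d. It rose 1.58-fold (log2 change 0.63, SE 0.12, limma adjusted p = 0.0242). Galnt4, which can add sugars beside existing ones, was at 5.61, 5.89 and 7.41 FPKM in f/f against 9.13, 10.3 and 11.2 in d/d. It rose 1.62-fold (log2 change 0.62, SE 0.15, limma adjusted p = 0.0425), and its exons share 420 of 5089 nt with Poc1b on the same strand, which averaged 8.32 ± 0.348 FPKM in f/f against 8.66 ± 0.635 in d/d (SD, n = 3 per group). Galnt2l was at 9.84, 14.8 and 14.9 FPKM in f/f against 0, 2.11 and 12.7 in d/d. It was not called with all libraries (limma adjusted p = 0.177) and was called as lower without d/d replicate 3. Its model shares 3854 of 3953 exonic nt with Galnt2, so reads may have been split between the 2 and its values are uncertain.

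The 4 tested Gcnt genes, which branch O-glycan cores and lactosamine chains, all had negative log2 changes, and 1 passed. Gcnt2, which makes the branched I antigen, was at 31.6, 48.8 and 45.2 FPKM in f/f against 21.2, 21.3 and 21.7 in d/d. It fell 1.96-fold (log2 change -0.91, SE 0.17, limma adjusted p = 0.0214), with d/d libraries almost equal. Gcnt1, the core 2 branching enzyme and the most abundant of the class, was at 55.1, 71.9 and 74.4 FPKM in f/f against 58.8, 26.1 and 42.9 in d/d, which overlapped (limma adjusted p = 0.159). Gcnt3, a mucin-type branching enzyme, was at 33.1, 60.9 and 66.4 FPKM in f/f against 44.3, 26.8 and 45.6 in d/d (limma adjusted p = 0.404). Among 17 other genes of O-linked sugars, all tested, 1 rose and 2 fell. The core genes C1galt1 and C1galt1c1 were not called (log2 changes 0.07 and 0.19, limma adjusted p = 0.75 and 0.49). Ogt and Oga, which add and remove single N-acetylglucosamine on nuclear and cytosolic proteins, were 1.64-fold and 1.46-fold lower (limma adjusted p = 0.0379 and 0.0324), from 99.8 ± 19.2 to 60.9 ± 5.32 FPKM for Ogt and from 67.3 ± 7.51 to 46.0 ± 2.56 FPKM for Oga (SD, n = 3 per group). Pomgnt2, which extends the mannose chains of dystroglycan, rose 1.59-fold (limma adjusted p = 0.0333).

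B3gnt9 had the lowest adjusted p of the 94 genes. It belongs to the family that starts and extends lactosamine chains. It was at 10.97, 11.3 and 12.4 FPKM in f/f against 47.9, 64.2 and 57.8 in d/d and the groups were far apart. It rose 4.90-fold (log2 change 2.19, SE 0.13, 95% interval 1.88 to 2.50, limma adjusted p = 0.00224). The gene (chr8:105252638-105255153, minus strand, GRCm38) shares 416 of 2516 exonic nt with D230025D16Rik on the opposite strand, which was not called at 13.2 ± 0.931 FPKM in f/f against 15.4 ± 1.82 in d/d (SD, n = 3 per group). Of 9 B3gnt genes 8 were tested, and no other passed. Through B3gnt9 the class sum went from 55.2, 55.5 and 67.0 FPKM in f/f to 98.0, 109.7 and 100.6 in d/d. B3gnt5, which starts lacto-series glycolipids, was at 1.46, 10.2 and 10.1 FPKM in f/f against 0.556, 1.27 and 3.02 in d/d, with f/f replicate 1 among the d/d values (limma adjusted p = 0.185). It was called as lower without f/f replicate 1 and without both replicates numbered 1.

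**Figure D3:**
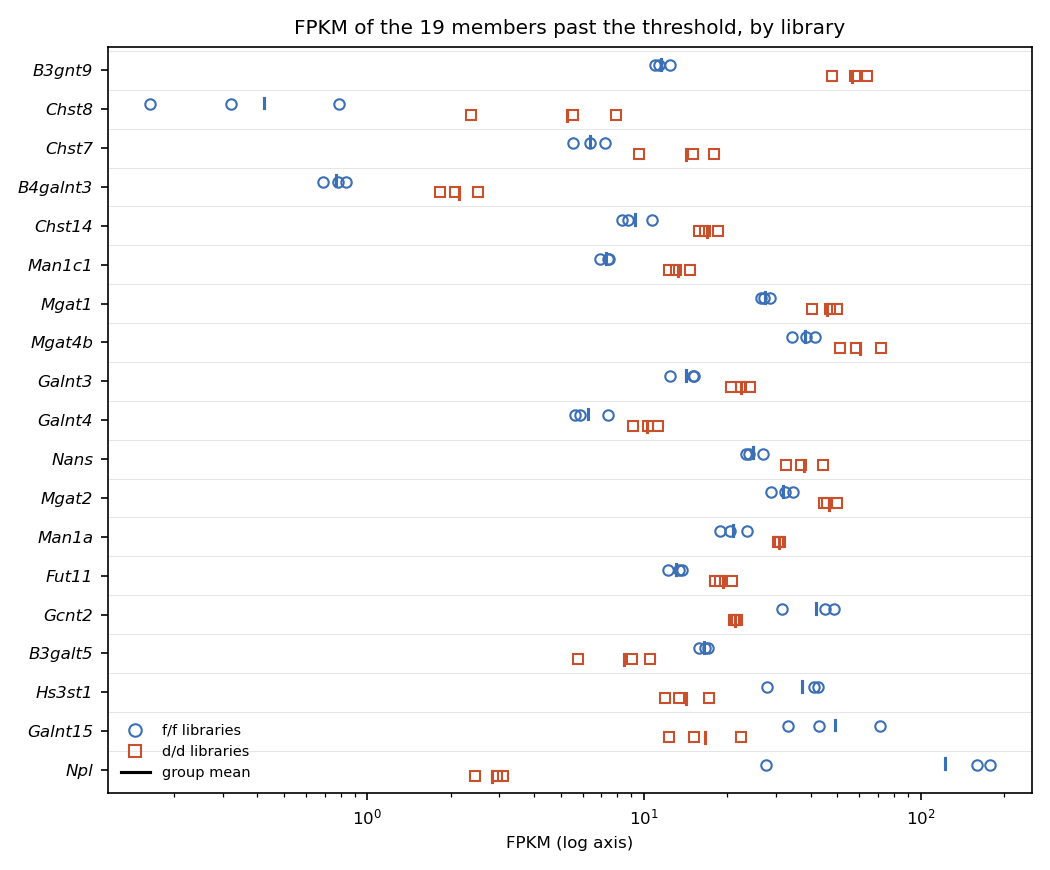
FPKM of the 19 genes past the threshold in each library (log axis), with circles for f/f, squares for d/d and vertical lines for group means. In all 19 the f/f and d/d libraries are separate, the gap being narrow in Galnt4 and wide in B3gnt9 and Npl, where f/f replicate 1 lies far below the other f/f libraries.

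Among the galactosyl- and N-acetylgalactosaminyltransferases 16 of 18 genes were tested, 1 rose and 1 fell (6.25% each, beside 6.04% and 4.97% of all features). B3galt5, which makes type 1 chains, was at 16.7, 15.9 and 17.0 FPKM in f/f against 10.5, 5.76 and 9.06 in d/d. It fell 1.95-fold (log2 change -0.92, SE 0.20, limma adjusted p = 0.0352). B4galnt3, which makes the LacdiNAc end group, was at 0.786, 0.690 and 0.837 FPKM in f/f against 2.51, 1.83 and 2.08 in d/d (log2 change 0.82, SE 0.20, limma adjusted p = 0.0476), a low level in both groups. B4galnt4, its relative with the same product, was at 1.57, 1.31 and 1.64 FPKM in f/f against 2.63, 4.90 and 7.35 in d/d, without overlap but short of the threshold (log2 change 1.17, limma adjusted p = 0.0573). B4galt1, the most abundant of the class and the main enzyme of lactosamine synthesis, averaged 60.1 ± 0.921 FPKM in f/f against 57.5 ± 1.68 in d/d (SD, n = 3 per group; 95% interval of the log2 change -0.26 to 0.14, limma adjusted p = 0.668). B4galt2 and B3galt6, the latter an enzyme of the proteoglycan linker, were near the threshold with log2 changes of 0.53 and 0.54 (limma adjusted p = 0.0528 and 0.0545). B4galnt1 averaged 15.5 ± 4.79 FPKM in f/f against 28.4 ± 7.77 in d/d (SD, n = 3 per group) and was not called (limma adjusted p = 0.0839). It was called as higher without f/f replicate 1 and without both replicates numbered 1.

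Of 8 fucosyltransferases 6 were tested and 1 rose (16.7%, beside 6.04% of all features). Fut11 was at 13.7, 13.4 and 12.2 FPKM in f/f against 18.8, 20.9 and 18.0 in d/d (1.47-fold, log2 change 0.52, SE 0.11, limma adjusted p = 0.0304). Fut8, which puts the core fucose on N-glycans, was at 22.2, 21.3 and 20.2 FPKM in f/f against 26.8, 27.0 and 30.4 in d/d, separate but short of the threshold (log2 change 0.39, limma adjusted p = 0.0551). Fut2, the secretor enzyme and the most abundant of the class, was at 28.8, 48.3 and 44.1 FPKM in f/f against 41.8, 23.9 and 24.3 in d/d. In Fut2 each replicate numbered 1 fell within the range of the other group (limma adjusted p = 0.337), and without both of them it passed as lower (log2 change -0.91, limma adjusted p = 0.0220).

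The Chst sulfotransferases act on chondroitin, dermatan and terminal sugars of other chains. Of 14 genes 10 were tested, 3 rose and 0 fell. Chst14, which sulfates dermatan, was at 8.33, 8.79 and 10.7 FPKM in f/f against 15.7, 18.5 and 16.6 in d/d, with no overlap. It rose 1.83-fold (log2 change 0.81, SE 0.13, limma adjusted p = 0.0147). Chst7, which sulfates chondroitin, was at 5.52, 7.22 and 6.36 FPKM in f/f against 17.9, 9.59 and 15.0 in d/d. It rose 2.22-fold (log2 change 1.01, SE 0.23, limma adjusted p = 0.0390). Chst8, known for sulfating the sugars of pituitary hormones on the end group that B4galnt3 and B4galnt4 make, was at 0.164, 0.788 and 0.321 FPKM in f/f against 2.37, 7.94 and 5.54 in d/d. It rose 12.4-fold (log2 change 2.05, SE 0.39, limma adjusted p = 0.0229), and the ratio was 21.8 without f/f replicate 2. The f/f mean of Chst8 was 0.424 FPKM, so the ratio rests on a low value. The gene reached the test only through d/d. Chst12, a chondroitin sulfotransferase, had the highest mean of the class over the 6 libraries and was not called, at 14.3, 29.4 and 29.3 FPKM in f/f against 44.4, 33.2 and 36.9 in d/d (limma adjusted p = 0.160). Chst10, which sulfates a terminal glucuronic acid, spread widely in f/f, at 11.9, 61.5 and 62.6 FPKM against 20.1, 8.41 and 15.8 in d/d. It was not called with all libraries (limma adjusted p = 0.228) and was called as lower without f/f replicate 1.

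The Chst8 window is shown because Chst8 had the largest fold among the genes that rose, from an f/f mean of 0.424 FPKM. It lies at chr7:34812662-34812961 (minus strand, GRCm38.p6, 75.0% G and C) and holds 4 GC boxes, in capitals.
Chst8 promoter: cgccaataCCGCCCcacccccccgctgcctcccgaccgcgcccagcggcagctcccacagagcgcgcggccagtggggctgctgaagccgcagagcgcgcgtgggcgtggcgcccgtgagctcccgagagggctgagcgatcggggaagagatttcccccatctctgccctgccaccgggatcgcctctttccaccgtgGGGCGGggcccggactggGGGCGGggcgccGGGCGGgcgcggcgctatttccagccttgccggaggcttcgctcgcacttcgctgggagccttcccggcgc

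Heparan sulfate is modified by the Hs3st and Hs6st enzymes, of which 4 of 10 were tested. By limma 0 rose and 1 fell (25.0%, beside 4.97% of all features). Hs3st1, which adds the rare sulfate that antithrombin binds, was at 27.7, 42.7 and 41.1 FPKM in f/f against 17.2, 13.3 and 11.9 in d/d, without overlap. It fell 2.63-fold (log2 change -1.32, SE 0.20, limma adjusted p = 0.0138). Hs6st1, with the highest mean of the class over the 6 libraries, was at 39.8, 33.6 and 28.8 FPKM in f/f against 62.1, 49.3 and 43.5 in d/d, separate but short of the threshold (log2 change 0.58, limma adjusted p = 0.0768). Among 30 other listed genes of heparan and chondroitin sulfate, 26 were tested, with a median log2 change of 0.18. Of these 5 rose and 1 fell, beside 6.04% and 4.97% of all features. Chpf, a partner subunit of the chondroitin polymerase, was at 40.4, 53.5 and 55.9 FPKM in f/f against 139.3, 136.5 and 154.7 in d/d (2.87-fold, limma adjusted p = 0.00428). Chsy1, the polymerase itself, went from 15.3 ± 2.88 to 27.3 ± 1.14 FPKM (SD, n = 3 per group, 1.79-fold, limma adjusted p = 0.0214), and Ext2, a heparan sulfate polymerase subunit, from 33.6 ± 2.71 to 57.5 ± 2.44 (SD, n = 3 per group, 1.71-fold, limma adjusted p = 0.0101). Dse, the epimerase that makes dermatan, and Xylt2, which starts the chains, also rose, 1.65-fold and 1.42-fold (limma adjusted p = 0.0345 and 0.0377). Extl3 fell 1.37-fold (limma adjusted p = 0.0475).

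Of the 36 genes under the filter none exceeded 1.79 FPKM in any library. Of the 30 above 0 in at least 1 library, the d/d values lay above all f/f values in 6 of these 30 (beside 5.40% of the features under the filter and above 0) and below them in 4 of these 30 (beside 7.57%). Galnt9, a Galnt gene, was at 0.0881, 0.0440 and 0.137 FPKM in f/f against 1.41, 0.567 and 1.52 in d/d. Lower in d/d were B4galnt2, the enzyme of the Sda antigen, at 1.54, 1.27 and 0.720 FPKM against 0.477, 0.246 and 0.284, and Chst3, a chondroitin sulfotransferase, at 1.79, 1.20 and 1.19 against 0.641, 0.441 and 0.371. With no filter 12 of 124 members with a value passed (9.68%, beside 4.19% of the 26441 features fitted). They included 1 gene under the filter, Galntl5, at 0.141, 0.0941 and 0.0978 FPKM in f/f against 0.389, 0.615 and 0.651 in d/d (limma adjusted p = 0.0441).

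Many calls depended on single libraries. Without f/f replicate 1, 17 of the 94 genes passed in either direction (18.1%, beside 11.5% of all features), and without f/f replicate 2 only 1 did (1.06%, beside 1.09%). Without f/f replicate 3, 5 passed (5.32%, beside 3.37%). Without d/d replicates 1, 2 and 3 in turn, 10 (10.6%), 5 (5.32%) and 4 (4.26%) passed, beside 5.65%, 3.81% and 3.63%. With both replicates numbered 1 left out 15 passed (16.0%, beside 9.05%). B3gnt9 was the 1 gene of the 19 that passed in all 6 of these leave-one-out fits. Man1c1 missed the threshold only without f/f replicate 2, and Mgat1 without either replicate numbered 2, f/f or d/d. Chst14 passed in 3 of the 6 fits, and Chst8, Hs3st1, Galnt15 and B3galt5 in 2. Galnt3, Gcnt2, Fut11, Man1a, Mgat2 and Chst7 passed in 1, and Nans, Galnt4, B4galnt3 and Mgat4b in 0. The direction of all 19 was the same in every one of the 14 alternatives run. Since the groups did not overlap in any of the 19, only the other scalings could have reversed a direction. Among called genes of the pathway lists, Chpf passed in all 6 leave-one-out fits and Ext2 in 5. Ctsa, Siglece, Mpi, Ogt, Oga, Pomgnt2 and Chsy1 passed in 1 of the 6, and Gfpt2, Slc35d2 and Mogs in 0. For Slc35d1, Dse, Xylt2 and Extl3 the passes were not counted.

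**Figure D4:**
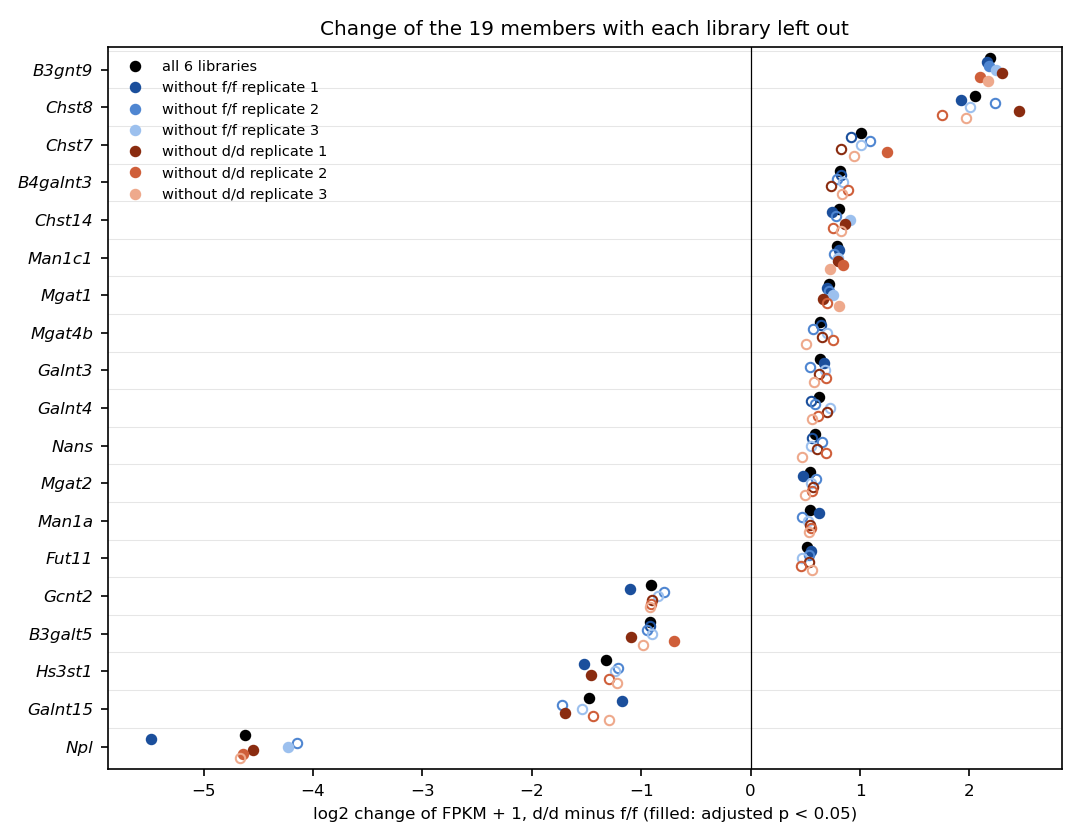
Log2 change of FPKM + 1 (d/d minus f/f, horizontal axis) of the 19 genes with all 6 libraries and with each library left out in turn; filled points passed the limma threshold and open points did not. All points of a gene lie on the same side of 0, as they must where the groups do not overlap. B3gnt9 is the gene with every point filled.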

How the data were processed

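RNA-seq of 6 whole oviduct libraries was analysed from the values per Ensembl gene that the authors deposited. These were read as FPKM, an inference from decimals with differing library totals and from Cufflinks 2.2.1 being named per the submitters' processing notes. Those notes also name HISAT2 2.2.1, mm9 and mm10, without saying which build was used. For the annotation, strand setting and filters no source used here gives any detail, and overlapping genes may share reads. Total RNA was extracted with TRIzol, per the labels' protocols. Whether replicates are separate animals is not in the labels; p-values reflect only how these libraries vary, possibly for technical reasons.

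Of 55483 features 55137 (99.4%) were in GENCODE M21 (GRCm38), used for coordinates, and rows of 1 symbol were added together (114 symbols). Features averaging 1 FPKM or more were fitted with limma 3.58.1 in R 4.3.3 (lmFit, eBayes with a variance trend, genotype as the only term, two-sided, pseudocount 1), which was tested on simulated data. Over all features, 933 were higher and 768 lower. Depth was read from the lowest FPKM steps, within 1% of which lay 91.6% to 95.2% of the genes used.

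Named genes are every member past the threshold, all of sialic acid metabolism, the most abundant of each class, up to 3 past the threshold per pathway list and the 2 most abundant of each marker list. Mettl3, markers past the threshold, Cyp11a1 and members near the threshold, under the filter or changed by leaving out a library were added after their values were seen. So were Slc35d1, Dse, Xylt2 and Extl3 of the pathway lists and genes that share exons with members. The same holds for Man2a1, Man2a2, Mgat3, Mgat4a, Mgat5 and Gcnt3, members without a call. The members and lists were chosen with earlier results of these data known. Alternatives were a pseudocount of 0.1, no filter, other scalings, no variance trend, a replicate block and leaving out libraries.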

Additional observations from a re-analysis of the deposited data

How the results depend on the processing

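Over all features, 933 rose and 768 fell. With no filter these were 599 and 508, with a replicate block 174 and 102, and with single libraries left out 98 to 926 and 71 to 854. Of the members, 14 rose and 5 fell. With no filter 9 and 3 did, with a replicate block 2 (B3gnt9 and Chst8) and 2 (Galnt15 and Npl), and with single libraries left out 1 to 11 and 0 to 6. The replicate block pairs libraries by number only. Same-numbered libraries did not deviate together (correlations of deviations from the group means -0.22, -0.0585 and 0.0027). With both replicates numbered 1 left out 8 rose and 7 fell. The lowest counts were without f/f replicate 2; the cause was not tested. The other scalings and the pseudocount kept the counts within 1.5 times and moved the median of all features by under 0.1. The genes called differed. Rescaling to nuclear protein-coding genes lost B4galnt3, Fut11 and Man1a. Fut8 was gained with quantile normalization and median-of-ratios scaling, and B4galnt4 with quantile normalization and the pseudocount of 0.1. No variance trend lost Mgat4b and Nans and gained B3galt6 and Fut4.

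No called member reversed, which only the other scalings could have brought about, since the groups of each did not overlap. The values that follow are log2 changes of genes without a call. Galnt1 was at -0.0182 with rescaling to nuclear protein-coding genes and -0.0237 to 0.0565 with single libraries left out, and Gne at -0.201 to 0.0491. Acta2 was at -0.0238 with quantile normalization, -0.315 without both replicates numbered 1 and -0.163 to 0.492 with single libraries left out. Without both replicates numbered 1, Dynlrb2 was at 0.326 and Cldn5 at -0.338. With single libraries left out Cldn5 ran from -0.234 to 0.406 and Pecam1 from -0.124 to 0.0412.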
